A study of Homo sapiens with 3 samples.

Results

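The transcription factors that set basal and luminal identity in breast epithelium were followed from a drug-sensitive TNBC cell line into a paclitaxel-resistant derivative. They comprised 10 genes, chosen by symbol from the 46427 genes measured: TP63, FOXC1, SOX9, SOX10, GATA3, FOXA1, ELF5, EHF, ESR1 and PGR. The line, MDA-MB-468 or MM468, had the wild-type genotype in both cultures described here. Parental MM468 cells were not treated, and MM468/PR cells were the survivors of paclitaxel, a drug that stabilizes microtubules, at 2 to 320 nmol/L. The resistant line is a surviving population of a single parental line, and whether drug was present at harvest is not stated. RNA-seq was performed on 1 library of each line, so no difference has a replicate check, and a difference between libraries cannot be told apart from a difference between cultures.

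The mammary epithelium has an outer basal and myoepithelial layer and an inner luminal layer. p63, the product of TP63, is the master regulator of basal and stratified epithelium, SOX9, SOX10 and FOXC1 are linked to basal and progenitor states, ELF5 and EHF are epithelial ETS factors, and GATA3, FOXA1 and the estrogen and progesterone receptors define the mature luminal state. TNBC by definition lacks the hormone receptors and HER2 amplification, and MDA-MB-468 is used as a model of its basal-like form.

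The parental library held 32704885 counts and the MM468/PR library 43242628, with 21146 and 23859 genes detected and 8.41% and 6.72% of counts in the 10 most abundant genes. Counts were scaled by TMM, genes with 10 or more counts in either library were compared, and a gene was called higher or lower at 2-fold or more. Fold changes are followed by a 95% interval of the count ratio, which covers counting error only. The epithelial label held: EPCAM had 12913 counts in parental and 22209 in MM468/PR cells, a log2 fold change of 0.15. The summed level of 8 epithelial markers was 4971 and 4751 CPM, the counts scaled to the library total. Of these 8 markers 7 lay within 2-fold and 1, CLDN7, was lower at -1.02 (12.5%, all genes 13.5%). Their median log2 fold change was -0.32. Of 15 markers of immune, endothelial, stromal, melanocytic and glial cells, 8 had no count in each library, COL1A2 among them, and PTPRC had 24 and 44 counts. Their summed level was 23.3 and 23.4 CPM, most of it COL1A1 with 659 and 820 counts, and its part in the results was not tested. In bulk RNA, a larger share of cells expressing a gene and more RNA per cell cannot be told apart. Scaling by library size alone raised the median change of all genes, as log2, by 0.23, and moved the higher share of changed genes from 60.2% to 71.2%.

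Of the 8 factors compared, TP63 was the one that was higher in MM468/PR cells, and ELF5, FOXC1, FOXA1 and SOX9 were lower. Some lineage factors and relatives outside the 10, given below, were also higher. TP63 rose 6.62-fold and ELF5 fell 6.81-fold, while the decreases of FOXC1, FOXA1 and SOX9 lay between 2.02-fold and 2.55-fold. GATA3 had a ratio of 0.965, and SOX10 had no count in either library. Of the 10 factors, 8 passed the count minimum, and SOX10 and PGR did not. Of these 8, 1 was higher, against 20.5% of 19099 genes, and 4 were lower, against 13.5%. Their median log2 fold change was -0.97, where all compared genes had a median of 0.07. The share of all genes that was higher, set beside each list below, depended on genes with few counts. It came from 3909 of 19099 genes, and with a minimum of 100 counts 1702 of 13603 were higher. No list was compared with genes of similar counts. SOX9 at -1.01 and FOXA1 at -1.11 stood close to the threshold on the log2 scale, and both calls were lost with library size scaling.

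**Figure D1:**
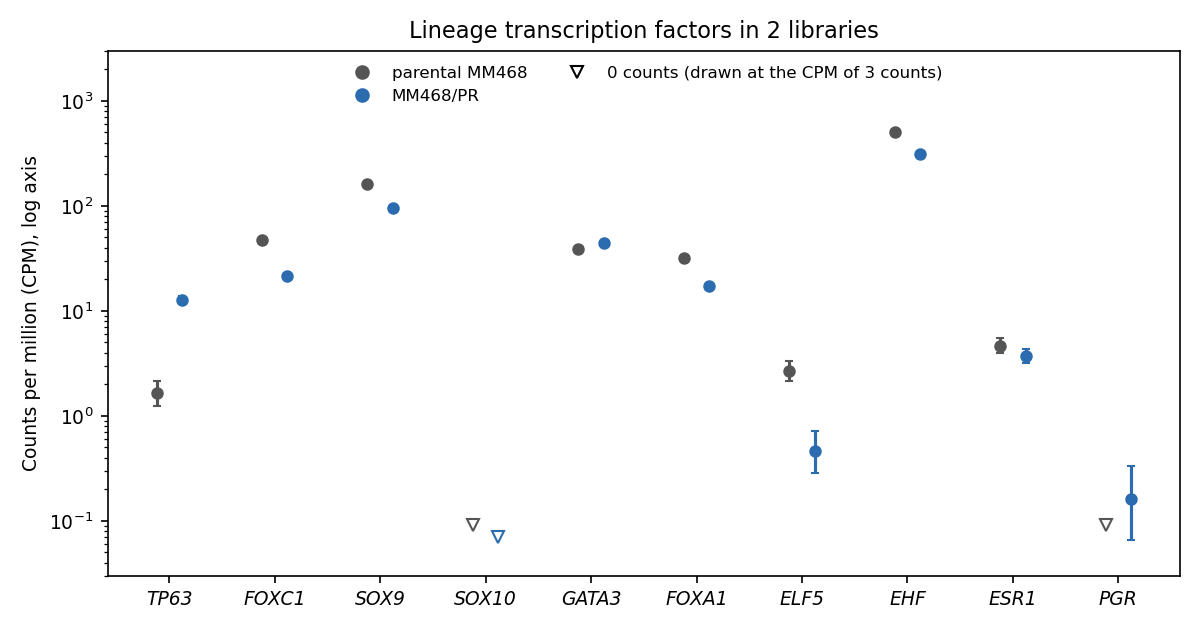
Level of each factor in the parental and MM468/PR libraries as CPM on a log axis, scaled to the library total without TMM. Bars are exact Poisson 95% intervals of counting error, and open triangles mark 0 counts, drawn at the level of 3 counts. TP63 goes from 1.65 CPM in parental to 12.8 in MM468/PR cells, ELF5 goes from 2.69 to 0.463 CPM, and EHF is the highest factor in both.

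The order of levels across genes was read per transcript length, from the deposited TPM. EHF led in both libraries at 207 TPM in parental and 136 TPM in MM468/PR cells, followed by SOX9 at 91.7 and 57.1 TPM and GATA3 at 28.1 and 34.6 TPM. FOXC1 at 26.0 and 12.8 TPM and FOXA1 at 19.9 and 11.2 TPM came next in each. The lower end of the order changed. In parental MM468 cells it ran from ELF5 at 2.57 TPM through ESR1 at 1.69 TPM to TP63 at 0.722 TPM, rank 8 of the 8 expressed factors. In MM468/PR cells TP63 stood at rank 6 with 6.48 TPM, above ESR1 at 1.45 TPM and ELF5 at 0.447 TPM. The counting intervals of neighbours in this order overlapped for GATA3 and FOXC1 in parental MM468 cells and for FOXC1 and FOXA1 in MM468/PR cells, and for no other neighbours among the 8.

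TP63 (NCBI Gene ID 8626) had 54 counts in the parental library and 553 in the MM468/PR library. It was nearly silent in the parental library and remained below EHF, SOX9, GATA3, FOXC1 and FOXA1 in the resistant one. The rise was 6.62-fold (95% interval 5.00 to 8.92), and the parental count of 54 sets the width of this interval. The log2 fold change of 2.72 exceeded that of 92.1% of all genes compared. On the log2(FPKM + 1) scale, which understates changes from a low level, it was 1.45.

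In the GENCODE v29 annotation of GRCh38, TP63 spans chr3:189631416-189897279 on the plus strand. Its 6 coding start positions fall into an outer group from 189631427 and an inner group from 189789660, spread over 158 kb. Transcripts from the outer starts encode TAp63, with a full transactivation domain, and transcripts from the inner starts encode ΔNp63, the form that predominates in basal epithelium. The gene-level counts do not separate them. The ratio of counts to FPKM, which follows the transcript length that the quantification assigned to a gene, offered an indirect reading. Relative to the median gene the change for TP63 from parental to MM468/PR cells was -7.86%. The range from percentile 5 to 95 of 13010 genes was -7.15% to 8.04%, so TP63 lay just below it, with 54 counts behind its parental value.

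Promoter windows show how unlike the starting sequences of the changed factors are. Windows from 250 bases before to 50 after the RefSeq start, in GRCh38.p14, were found for 8 of the 10 factors. SOX9 and SOX10 had no window. The 250 bases before the start are printed for the 4 factors with the largest changes, 5′ to 3′ on the gene's strand, at chr3:189631139-189631388 (plus strand) for TP63, chr6:1609665-1609914 (plus) for FOXC1, chr14:37595250-37595499 (minus) for FOXA1 and chr11:34511725-34511974 (minus) for ELF5. Capitals mark matches, on either strand, to the motifs searched.
TP63: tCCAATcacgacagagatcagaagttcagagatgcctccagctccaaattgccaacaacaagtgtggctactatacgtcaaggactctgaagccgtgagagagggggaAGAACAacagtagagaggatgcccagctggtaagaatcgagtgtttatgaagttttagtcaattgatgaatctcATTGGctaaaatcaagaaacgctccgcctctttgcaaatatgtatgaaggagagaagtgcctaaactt
FOXC1: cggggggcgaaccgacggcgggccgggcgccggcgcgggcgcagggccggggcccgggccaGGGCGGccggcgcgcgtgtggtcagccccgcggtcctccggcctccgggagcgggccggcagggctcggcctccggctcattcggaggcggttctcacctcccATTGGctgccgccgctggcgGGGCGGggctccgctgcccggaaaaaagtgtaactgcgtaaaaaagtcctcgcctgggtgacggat
FOXA1: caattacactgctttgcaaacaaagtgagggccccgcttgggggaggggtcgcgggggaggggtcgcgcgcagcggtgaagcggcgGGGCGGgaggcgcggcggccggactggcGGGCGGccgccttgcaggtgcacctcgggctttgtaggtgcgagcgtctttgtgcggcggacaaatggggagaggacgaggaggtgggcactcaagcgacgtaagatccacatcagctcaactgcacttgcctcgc
ELF5: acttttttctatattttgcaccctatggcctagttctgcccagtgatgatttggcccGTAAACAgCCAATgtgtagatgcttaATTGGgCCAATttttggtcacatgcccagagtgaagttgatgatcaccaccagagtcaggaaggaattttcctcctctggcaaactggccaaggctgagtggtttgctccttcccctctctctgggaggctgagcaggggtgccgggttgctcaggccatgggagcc
The TP63 window lies at the outer start and says nothing of the inner one. The same limit holds for ESR1, whose window lies at the outer end of 9 coding start positions spread over 254 kb. EHF has 10 such positions over 21.5 kb, and starts outside the windows were not searched. The windows of FOXA1, ELF5, EHF and PGR lie wholly inside the GENCODE spans of their genes. FOXA1, for example, spans chr14:37589984-37596059 on the minus strand. For these 4 genes the bases before the RefSeq start are therefore not upstream of the whole annotated gene. FOXC1 and FOXA1 had CpG-rich windows with 40 and 34 CpG in 300 bases, more than 92.4% and 84.4% of 35116 promoters, and ELF5 had 2, more than 11.0%. TP63 had 7 CpG, where the median promoter had 14, and a GC content of 43.7% against a median of 58.7%. Among the remaining windows GATA3 had 16 CpG, PGR 15, EHF 8 and ESR1 4.

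Of the motifs searched on both strands, CCAAT was found in 5 of the 8 windows and in 34.6% of all promoters, and GGGCGG, the GC box, in 3 of the 8 and in 45.0%. The forkhead motif TGTTTAC was found in ELF5 alone among the 8, as its reverse complement, and in 3.42% of all promoters. AGAACA, a motif of the progesterone receptor, was in the TP63 and ESR1 windows and in 14.8% of promoters, and in ESR1 it overlapped the SOX motif AACAAT, found in no other window of the 8 and in 10.1% of promoters. TATAAA was in the TP63 window, after the start and on the opposite strand, and in 11.5% of promoters. No window held GATAA, the GATA factor motif, found in 22.7% of promoters, or TGACTCA, the AP-1 motif, found in 4.95%. The same held for AGGTCA, the estrogen receptor motif, found in 13.8%. These are matches of letters and no evidence of binding.

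More of the known targets of p63 were lower than higher in MM468/PR cells, where TP63 itself was higher. All 26 listed targets passed the count minimum: 3 were higher, 7 were lower and 16 lay within 2-fold, with a median log2 fold change of -0.36. These are 11.5% higher and 26.9% lower, beside 20.5% and 13.5% of all genes. With a minimum of 100 counts, 1702 of 13603 genes were higher and 1569 lower. The targets were not compared with genes of similar counts, so their smaller higher share is not read as a deficit. The summed level of the list was 3075 CPM in parental and 3092 CPM in MM468/PR cells. This sum is scaled to the library total without TMM, so it is not on the scale of the fold changes. The list contains targets that p63 activates and some, such as CDKN1A, that it is known to repress.

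KRT14, the basal keratin that p63 activates, had 2347 counts in the parental library and 474 in the MM468/PR library, and was 7.66-fold lower (95% interval 6.94 to 8.48). Its partner KRT5 had 23983 and 29704 counts, a log2 fold change of -0.32 that did not reach 2-fold. The basal keratin pair thus differed in whether it was called. The other targets that fell were ZNF750, an epidermal differentiation factor, by 1.95 on the log2 scale, PERP, a desmosome gene, by 1.74, and ITGA6, an integrin chain, by 1.70. TRIM29 fell by 1.43, S100A2, a calcium-binding gene, by 1.31 and CLCA2 by 1.30, the last with 83 and 52 counts.

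FRAS1, an extracellular matrix gene, JAG2, a Notch ligand, and ITGA3, an integrin chain, were the targets that rose. FRAS1 had 1058 counts in parental and 12988 in MM468/PR cells, 7.93-fold higher (95% interval 7.45 to 8.45). JAG2 went from 377 to 2634 counts, 4.51-fold higher (4.05 to 5.04), and ITGA3 had 4637 and 19205 counts with a log2 value of 1.42. Among those within 2-fold, CDKN1A, which encodes the cell cycle inhibitor p21, had 956 and 1857 counts and a log2 value of 0.33. At the adhesion complex with the basement membrane, LAMA3, a laminin chain, had 321 and 628 counts with 0.34, ITGB4, the integrin partner of ITGA6, had 0.21, and COL17A1, a hemidesmosome collagen, had 15 and 24 counts. KLF4, a squamous differentiation factor, had 223 and 653 counts, short of the threshold at 0.92.

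**Figure D2:**
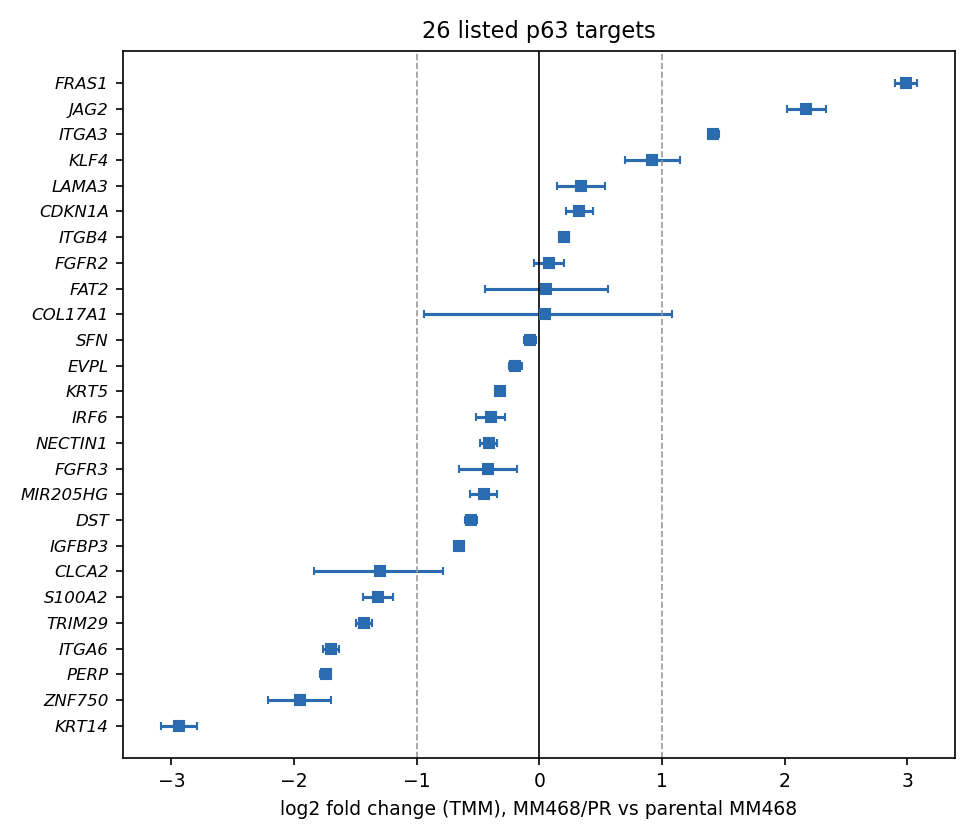
Log2 fold change (TMM) of the 26 p63 targets in MM468/PR against parental MM468 cells, with exact binomial 95% intervals of counting error as bars and dashed lines at 2-fold. FRAS1, JAG2 and ITGA3 lie beyond 2-fold to the right, and KRT14 is farthest to the left at -2.94.

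TP73, a relative of TP63, was not called higher: it had 435 counts in parental and 404 in MM468/PR cells, a log2 value of -0.74. Of the neighbours of TP63 on chromosome 3, TPRG1 had 47 and 49 counts and CLDN1, a tight junction gene, had 1791 and 2883 with a log2 value of 0.06. P3H2, a collagen hydroxylase, rose from 1035 to 5781 counts with a log2 fold change of 1.85, and LPP, a focal adhesion gene, fell by 1.08. The genes around TP63 were thus changed in both directions or not at all.

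FOXC1 (Gene ID 2296), a forkhead factor that marks basal-like breast cancer, had 1533 counts in the parental library and 929 in the MM468/PR library. The decrease after TMM scaling was 2.55-fold (95% interval 2.35 to 2.77). Scaled to the library total alone, the levels were 46.9 and 21.5 CPM, a smaller difference. FOXC1 lies at chr6:1609972-1613897 on the plus strand. Its forkhead neighbour FOXQ1 had 1961 and 399 counts, a 7.61-fold decrease (6.83 to 8.49). GMDS, on the same chromosome, fell by 1.24 on the log2 scale, and the noncoding FOXCUT had 11 and 8 counts. The 3 neighbours listed for FOXC1 were thus each called lower. FOXCUT was so on few counts, and the 95% interval of its ratio, 0.164 to 1.28, included no change. Of the 18 compared antisense and neighbouring genes of all the factors, 6 were lower (33.3%, all genes 13.5%). In the same list 3 were higher (16.7%, all genes 20.5%).

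SOX9 (Gene ID 6662), a progenitor and basal SOX factor, had 5328 counts in the parental library and 4088 in the MM468/PR library. It was second to EHF in TPM in each library. The ratio was 2.02-fold lower (95% interval 1.94 to 2.10), at the threshold. With library size scaling it was -0.79 on the log2 scale, so the call was lost. SOX9-AS1, which overlaps it on the opposite strand at chr17:72121020-72126420, had 138 and 72 counts and fell by 1.57 on the log2 scale. The library kit marks strand, but whether the counting used it is not stated, so reads of overlapping genes may have been shared.

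SOX10 (Gene ID 6663), a neural crest and basal-like SOX factor, had 0 counts in both libraries, where 3 counts would be 0.0917 CPM in the parental and 0.0694 CPM in the MM468/PR library. POLR2F, which overlaps it on the opposite strand, had 1956 and 1666 counts. Other SOX factors moved both ways. SOX6 rose from 24 counts to 719, 19.4-fold (95% interval 12.9 to 30.4), and SOX11 from 322 to 1146 with a log2 fold change of 1.20. SOX4, abundant at 6573 parental counts, fell by 1.24 on the log2 scale and SOX13 by 1.20. SOX8 had no count in either library.

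GATA3 (Gene ID 2625), the zinc finger factor that maintains luminal cells, had 1269 counts in the parental library and 1895 in the MM468/PR library. After scaling the ratio was 0.965 (95% interval 0.898 to 1.04). Its sign depended on the scaling, with a log2 value of -0.05 by TMM and 0.18 by library size. The antisense transcript GATA3-AS1 had 10 and 18 counts. Its relative GATA2, a factor of blood and endothelial cells, had 40 and 498 counts and was 8.05-fold higher (5.82 to 11.4), and GATA6, an endoderm factor, had 285 and 294 counts with a log2 value of -0.58. GATA5 had 0 and 33 counts, at least 7.11-fold higher, and GATA1 and GATA4 had none.

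FOXA1 (Gene ID 3169), the forkhead pioneer factor that opens chromatin for the estrogen receptor, had 1044 counts in the parental library and 747 in the MM468/PR library. The decrease was 2.16-fold (95% interval 1.97 to 2.38), and this interval reaches below the threshold. Scaling by library size gave -0.89 on the log2 scale, within 2-fold. TTC6, on the opposite strand at the FOXA1 locus on chromosome 14, had 72 and 105 counts. Its close relative FOXA2 had no count in either library, and FOXA3 had 6 and 15.

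**Figure D3:**
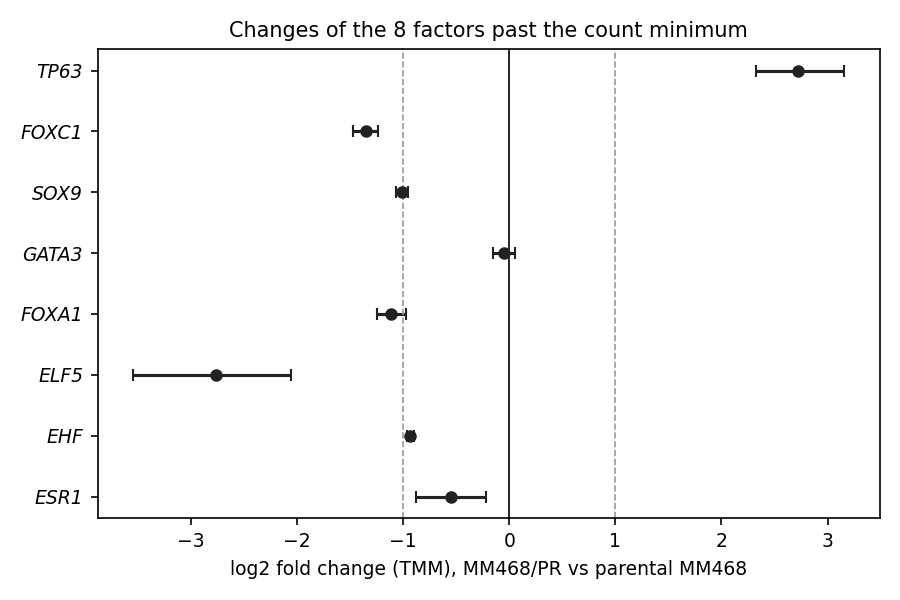
Log2 fold change (TMM) of the 8 factors that passed the count minimum, in MM468/PR against parental MM468 cells, with exact binomial 95% intervals of counting error as bars and dashed lines at 2-fold. TP63 stands alone on the right at 2.72, ELF5 is farthest to the left at -2.76, and EHF, SOX9 and FOXA1 lie close to the left dashed line.

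ELF5 (Gene ID 2001), the ETS factor of alveolar luminal progenitors, had 88 counts in the parental library and 20 in the MM468/PR library. It was 6.81-fold lower in the latter (95% interval 4.15 to 11.7), and 2.69% of all genes compared had a lower log2 fold change. The count of 20 makes the interval wide, and on the log2(FPKM + 1) scale the difference was -0.81, within 2-fold.

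EHF (Gene ID 26298) lies next to ELF5 on chromosome 11, at chr11:34621093-34661057 on the plus strand against chr11:34478793-34513805 on the minus strand. This ETS factor of differentiated epithelium had 16487 counts in the parental library and 13350 in the MM468/PR library. EHF was 1.91-fold lower (95% interval 1.87 to 1.96) and did not reach the threshold. The neighbours CAT, APIP and PDHX had log2 fold changes of -1.01, -0.17 and -0.65, so ELF5 had the largest decrease of these 5 genes of the locus.

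Of the related ETS factors, SPDEF, a factor of luminal and secretory cells, had 2811 counts in the parental library and 190 in the MM468/PR library. It was 22.9-fold lower (95% interval 19.8 to 26.7), a larger change than that of any of the 10 factors. ELF3, another epithelial ETS factor, had 9551 and 9404 counts with a log2 value of -0.65, and ELF1, which is widely expressed, had 0.27. Over the 22 listed relatives of the 10 factors, 6 of the 16 compared were higher and 3 were lower, with a median log2 fold change of 0.36. The shares were 37.5% and 18.8%, where 20.5% of all genes were higher and 13.5% lower.

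ESR1 (Gene ID 2099), which encodes estrogen receptor alpha, had 152 counts in the parental library and 161 in the MM468/PR library. Its level was low in both, at 4.65 and 3.72 CPM, which are scaled to the library total alone. After TMM scaling ESR1 was 1.46-fold lower in the resistant line (95% interval 1.16 to 1.84), which is within 2-fold. SYNE1, a nuclear envelope gene that overlaps ESR1 on the opposite strand, had 0 and 293 counts and was at least 63.1-fold higher in MM468/PR cells. Read sharing between them was not tested. ESR2, encoding estrogen receptor beta, had 12 and 69 counts, with a log2 fold change of 1.88.

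PGR (Gene ID 5241), the progesterone receptor and a classical ESR1 target, had 0 counts in the parental library and 7 in the MM468/PR library. It did not pass the count minimum, and 7 counts were at least 1.51-fold above the parental level of 3 counts. Its antisense transcript PGR-AS1 had none in either library.

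Of the genes that the estrogen receptor is known to activate, more were called lower than higher. Of 16 listed, 12 were compared, of which 1 was higher and 6 lower, with a median log2 fold change of -1.27. That is 8.33% higher and 50% lower, set against 20.5% and 13.5% of all genes. TFF1, TFF3 and CXCL12 had no count in either library. XBP1, a secretory and luminal factor, went from 4829 counts in parental to 821 in MM468/PR cells and was 9.10-fold lower (95% interval 8.45 to 9.81). MYB had 482 and 91 counts and was 8.20-fold lower (6.54 to 10.4).

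PDZK1, a scaffold gene, had 506 and 64 counts and was 12.2-fold lower (95% interval 9.42 to 16.1). AGR2, a luminal disulfide isomerase, had 1651 and 588 counts and was 4.35-fold lower. STC2, a secreted glycoprotein, fell by 1.97 on the log2 scale, and CA12, a carbonic anhydrase, by 1.62 on 36 and 18 counts. CCND1, which encodes cyclin D1, was the target that rose, from 2697 to 8532 counts with a log2 fold change of 1.03.

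The lineage markers beneath these factors were read as 3 lists. Some genes recur between lists, so the lists are not separate counts. AGR2, CA12, MYB and XBP1, each lower, stand among both the estrogen receptor targets and the mature luminal markers. MYB and XBP1 recur among the further lineage factors and SPDEF among the relatives. KRT14 is both a p63 target and a basal marker. Among mature luminal markers, 1 of 17 was higher (5.88%, all genes 20.5%) and 8 were lower (47.1%, all genes 13.5%), with a median log2 fold change of -0.98. The keratins of the luminal layer were not among those lower: KRT8 had 54225 and 79801 counts with a log2 value of -0.07, KRT18 had -0.06 and KRT19 had -0.98, just within 2-fold. MLPH, a melanosome transport gene of luminal cells, had 2674 and 198 counts and was 20.9-fold lower, and MUC1, an apical mucin, was 5.10-fold lower. ERBB4, a receptor of the EGFR family, had 0 counts in parental and 523 in MM468/PR cells, a rise of at least 113-fold.

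Of the luminal progenitor markers, 7 were compared, of which 4 were lower (57.1%, all genes 13.5%) and 1 higher (14.3%, all genes 20.5%), with a median of -1.91. CD14 had 755 and 15 counts and was 77.9-fold lower (95% interval 46.9 to 139.9), and PROM1 had 7389 and 2402 counts and was 4.76-fold lower. KIT, the stem cell factor receptor, had 65 and 0 counts, a drop of at least 33.5-fold. TNFRSF11B, the member that was higher, rose from 11 to 155 counts, 9.11-fold. ALDH1A3, an aldehyde dehydrogenase of progenitors, stayed abundant at 25368 and 40313 counts, with a log2 value of 0.04.

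Of the basal and myoepithelial markers 15 were compared, of which 3 rose and 3 fell, with a median log2 fold change of -0.16. Each is 20% of the list, close to the 20.5% of all genes that were higher and not far from the 13.5% that were lower. OXTR, the oxytocin receptor, rose 15.3-fold, from 113 to 2667 counts, CAV1, a caveolar coat gene, by a log2 fold change of 1.72, and ACTA2, smooth muscle actin, from 4 to 56 counts. TAGLN, an actin-binding gene, was 5.85-fold lower and CRYAB, a small heat shock gene, 6.46-fold lower, beside KRT14. CNN1, a contractile marker, had no count in either library, and MYLK, a contractile kinase, had 225 and 344. EGFR, amplified in this cell line, had a log2 value of -0.16.

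Of a further 33 breast lineage factors 30 were compared, of which 5 were higher and 7 lower, with a median log2 fold change of -0.28. The higher share of 16.7% was near the 20.5% of all genes, and the lower share was 23.3% against 13.5%. TWIST1, a mesenchymal factor, had 6 counts in parental and 250 in MM468/PR cells, 26.9-fold higher (95% interval 12.2 to 74.1), and ZEB1, a repressor of epithelial genes, had 16 and 53. RUNX1 rose from 2339 to 12307 counts and ID4, a basal inhibitor of differentiation, from 1521 to 9062. EN1, a homeobox factor of basal-like tumors, fell from 76 to 16 counts, and RUNX3 fell by 1.83 on the log2 scale. SNAI2, a basal and mesenchymal factor, and TBX3 had no count in either library. The epithelial factors GRHL2 and TFAP2C stayed within 2-fold, with 4274 and 5250 counts and 2716 and 3603 counts.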

How the data were processed

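RNA-seq was performed on 1 library each of untreated (parental) MM468 and MM468/PR cells, grouped by their labels. A further line of the experiment and some listed genes are not reported here. Libraries were prepared from poly(A) RNA with a strand-marking kit. The submitters' processing notes name Trimmomatic 0.39, HISAT2 2.2.1, StringTie 2.2.1 and the GRCh38 build. The annotation release and the use of strand in counting are not given in the sources used here. The authors deposited raw read counts of 46427 genes, not normalized. The deposited FPKM and TPM values were computed by the authors per gene length and library.

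Counts of both libraries were scaled by TMM with edgeR 4.0.16 in R 4.3.3 (prior count 0.125, genes with 10 or more counts in 1 library). With 1 library per line there was no spread from which the quasi-likelihood test could be computed, so no p-value is given and a gene was called at 2-fold. Intervals of 95% are exact binomial (Clopper-Pearson) for fold changes and exact Poisson for levels, and cover counting error only. Folds against 0 counts are bounds against 3 counts per library. CPM are counts scaled to the library total without TMM, so ratios of CPM differ from the fold changes. Genes named are the 10 factors and members of the lists that changed at least 4-fold with 100 or more counts in 1 library or had 0 counts. The other list genes named were chosen after their values were seen. The factors and lists were chosen with earlier results of these data known. Scripts were tested on simulated data. The alternatives tried were scaling by DESeq2 1.42.0, by library size alone or by TMM on all 3 libraries of the experiment, a prior count of 2, dropping the count minimum or setting it at 100, keeping genes with a count in all 3 libraries, a 4-fold threshold, and log2 of FPKM with a pseudocount of 1 or 0.1 and of TPM with a pseudocount of 1. Positions are from GENCODE v29 and promoters from RefSeq GRCh38.p14. Figures were drawn with matplotlib 3.10.9.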

Additional observations from a re-analysis of the deposited data

How the results depend on the processing

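No factor past 2-fold changed sign under any alternative. Of 79 alternative values of the factors, 50 stayed within the counting interval, and 4 outside it had the opposite sign, all of GATA3 and at most 0.29 on the log2 scale. Of 218 values of the named list genes, 136 stayed within it and 0 reversed. ERBB4 and SYNE1, with 0 parental counts, had no interval, and their values were counted as outside. The number of factors lower in MM468/PR cells, 4, depended most on the scale: it was 2 with library size only, 2 with a minimum of 100 counts, 3 without a count minimum, 0 with log2(FPKM + 1), 2 with log2(FPKM + 0.1) and 1 with log2(TPM + 1). At a 4-fold threshold it was 1, ELF5. The number higher was 1, TP63, under each alternative but that without a count minimum, where PGR with its 7 counts raised it to 2. A pseudocount pulls the changes of low genes toward 0, and FPKM and TPM carry no TMM scaling. With log2(FPKM + 0.1), SOX9 was at -0.76 and FOXA1 at -0.89, near their library size values of -0.79 and -0.89. A minimum of 100 counts removes ELF5. SOX9 was within 2-fold with that minimum, at -0.95 on the log2 scale, and without any, at -0.98. Library size alone raised the median log2 value of all genes by 0.23 and log2(TPM + 1) by 0.20, and the higher share of changed genes was 71.2% with either.

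No paired analysis was possible because there was 1 library per line, and leaving out a library leaves no comparison. Counting error limits ELF5, ESR1 and the parental level of TP63, and variation between cultures was not measured.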
